A study of Mus musculus with 18 samples.

Results

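Transcripts of 10 inhibitors of MAP kinase signalling were compared in CD8+ T cells that had been given 1 of 5 common gamma chain cytokines shortly after antigen priming. The 10 genes were 6 dual-specificity phosphatases (Dusp1, Dusp2, Dusp4, Dusp5, Dusp6 and Dusp10), the Sprouty genes Spry1 and Spry2 and the SPRED genes Spred1 and Spred2, taken by name from the 18194 genes with a value. The cells were OT-I Thy1.1 TCR Tg CD8 T cells from male mice, whose transgenic T cell receptor recognises the ovalbumin peptide SIINFEKL. All groups had been stimulated for 48 hours with irradiated, peptide-pulsed splenocytes of wild-type C57BL/6 mice and enriched for viable cells, and were then cultured for 24 hours in complete RPMI alone (media control) or with 100 ng/ml of a murine recombinant cytokine, which was IL-21, IL-15, IL-7, IL-4 or IL-2. Each of the 6 groups held 3 biological replicates, 1 array each, and the ages of the mice and whether replicates came from separate animals are not given in the sources used here, so the p-values measure the spread between these samples. RNA of replicates 1 and 2 was extracted with RNeasy and that of replicate 3 with TRIzol and Direct-zol.

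ERK, p38 and JNK are MAP kinases that are switched on by phosphorylation of a threonine and a tyrosine in their activation loop, and dual-specificity phosphatases switch them off by removing both phosphates. Dusp1, Dusp2, Dusp4 and Dusp5 encode nuclear enzymes, of which DUSP5 is specific for ERK, while Dusp6 encodes a cytoplasmic ERK phosphatase. DUSP10 acts mainly on p38 and JNK, so the gene belongs here as a MAP kinase phosphatase rather than as a regulator of ERK. Sprouty and SPRED proteins act further upstream, where they dampen the activation of Ras and Raf, and SPRED proteins bring neurofibromin, which turns Ras off, to the membrane. Several of these genes are themselves induced by ERK and form a negative feedback, and in T cells the pathway carries signals from the antigen receptor and from the IL-2 receptor.

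Upstream sequence was available for 9 of the 10 genes, all except Dusp4, as the 250 bases before the annotated start (RefSeq, mouse assembly GRCm38.p6). The 5 windows printed here belong to genes whose transcripts changed with IL-2, IL-4 or IL-21, and all lie on the + strand. The windows of the other 4 genes, among them Spry2, which fell with IL-4, are not printed. Spred1 and Spred2 are shown together because both rose with IL-2, and Dusp10 because it had the largest change of the 10 genes.
Dusp10, chr1:184034131-184034380: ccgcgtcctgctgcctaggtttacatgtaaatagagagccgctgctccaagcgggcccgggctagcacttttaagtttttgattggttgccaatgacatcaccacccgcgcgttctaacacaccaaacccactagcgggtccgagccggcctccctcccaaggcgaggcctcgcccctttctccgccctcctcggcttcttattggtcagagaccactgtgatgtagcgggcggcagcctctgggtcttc
Spred1, chr2:117120821-117121070: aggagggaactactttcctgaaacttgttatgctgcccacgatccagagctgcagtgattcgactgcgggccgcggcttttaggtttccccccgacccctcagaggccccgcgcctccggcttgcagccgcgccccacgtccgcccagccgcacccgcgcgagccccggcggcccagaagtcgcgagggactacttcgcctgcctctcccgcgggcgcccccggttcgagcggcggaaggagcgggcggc
Spred2, chr11:19924192-19924441: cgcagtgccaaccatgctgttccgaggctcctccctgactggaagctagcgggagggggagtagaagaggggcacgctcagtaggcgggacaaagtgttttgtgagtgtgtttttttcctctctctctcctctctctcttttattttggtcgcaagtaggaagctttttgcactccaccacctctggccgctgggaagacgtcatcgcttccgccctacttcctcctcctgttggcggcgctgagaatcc
Dusp2, chr2:127335909-127336158: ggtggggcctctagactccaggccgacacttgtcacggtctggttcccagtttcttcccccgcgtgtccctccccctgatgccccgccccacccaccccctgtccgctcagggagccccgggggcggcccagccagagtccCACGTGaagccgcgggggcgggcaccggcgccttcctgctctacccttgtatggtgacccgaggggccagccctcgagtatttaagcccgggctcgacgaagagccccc
Dusp5, chr19:53528895-53529144: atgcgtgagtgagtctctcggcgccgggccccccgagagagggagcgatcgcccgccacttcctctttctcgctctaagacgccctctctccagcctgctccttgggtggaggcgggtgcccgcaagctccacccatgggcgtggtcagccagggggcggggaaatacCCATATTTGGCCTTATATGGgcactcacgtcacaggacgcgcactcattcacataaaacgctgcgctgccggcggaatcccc
Capitals mark the motif matches. The Dusp2 window holds an E-box (CACGTG, also in the Dusp1 window), a motif present in 6.02% of all 32851 windows of this length. The Dusp5 window holds 2 adjoining CArG boxes, the element bound by serum response factor, 82 and 72 bases before the start, and 1.47% of all windows hold at least 1. Of the other motifs searched on both strands, the cAMP response element (TGACGTCA, 1.55% of windows) was found in the Dusp1 window, while the STAT-type GAS elements TTCNNNGAA (7.02%) and TTCNNNNGAA (5.85%), the AP-1 site TGANTCA (6.75%) and the ETS site CCGGAAG (6.91%) matched none of the 9 windows. No match overlaps another, and a match describes letters only.

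The values are log2 RMA values, set on 1 scale by a renewed quantile normalization because replicate 3 of IL-15, IL-2 and media control was lower over the whole array. As deposited, the medians of those 3 arrays lay between 4.47 and 4.52 and those of the other 15 between 5.76 and 5.84, and their 3' and 5' actin probe sets differed by 0.59 to 0.68 against 0.19 to 0.39. A level of 6.59 was taken as background. All 7 measured markers of CD8 T cells (Cd8a, Cd8b1, Cd3e, Cd3d, Cd3g, Cd247 and Thy1) were above it in every group, and 5 of the 7 fell with IL-2 and 1 with IL-4. Of the other cell types, 3 of 7 B cell markers, 1 of 9 myeloid markers and 1 of 5 dendritic cell markers fell with IL-2, and IL-21 lowered 1 B cell marker and IL-7 lowered 2. The summed myeloid level ran from 9.54 to 12.06 in media control and from 8.67 to 9.05 with IL-2, the group means of Lyz2 ran from 6.42 to 9.34, and of the 7 B cell markers Cd79b alone was above background in every group (group means from 6.61 to 7.50), while the group means of Cd79a ran from 5.17 to 5.84 and those of Pax5 from 5.25 to 5.51. The part of these cells in the results below was not tested, and in bulk RNA fewer cells of a type and less RNA per cell cannot be told apart.

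IL-2 and IL-4 changed the most of these inhibitors, IL-21 changed a pair of them, and none passed the test with IL-7 or IL-15. IL-2 raised Spred1, Spred2 and Dusp4 and lowered Dusp2 and Dusp10. IL-4 raised Dusp10 and Dusp4 and lowered Dusp2 and Spry2. IL-21 raised Dusp5 and lowered Dusp2, so that a fall of Dusp2 was called with all 3 of these cytokines. In numbers, IL-2 changed 5 of the 10 genes (3 higher and 2 lower), where it changed 15.8% of all genes tested (7.83% higher and 8% lower; limma, adjusted p under 0.05). IL-4 changed 4 (2 higher and 2 lower), against 9.07% of all genes (3.98% and 5.1%), and IL-21 changed 2 (1 higher and 1 lower), against 6.67% (3.39% and 3.29%). With IL-7 none of the 10 was called by limma, against 1.68% of all genes. An unadjusted p under 0.05 was found for 2 of the 10 and for 2579 of all 18194 genes. With IL-15 none was called, as for all genes (0%), and none of the 10 had an unadjusted p under 0.05, where 390 of all genes did. With the replicate number as a block IL-2 and IL-4 each changed 7 of the 10 (30.6% and 25.8% of all genes) and IL-21 changed 6 (21.1%). In that fit IL-7 changed 3 (16.3%), of which 1 was higher (8.34%) and 2 lower (8.01%), and IL-15 changed 0 (0%). All 3 arrays of a cytokine lay above all 3 of media control for 4 of the 10 genes in IL-2 (12.9% of all genes), 4 in IL-4 (12.5%), 1 in IL-7 (9.07%), 0 in IL-15 (1.8%) and 2 in IL-21 (10.1%). They lay below for 2 in IL-2 (12.4%), 2 in IL-4 (11.9%), 2 in IL-7 (10.1%), 0 in IL-15 (1.6%) and 4 in IL-21 (10.6%). Over the 5 cytokines against media control, which share the same control arrays, the median change of the 10 genes was 0.31 for IL-2, 0.02 for IL-4, -0.0012 for IL-7, -0.10 for IL-15 and -0.42 for IL-21, and that of all genes lay between -0.02 and 0.01.

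**Figure D1:**
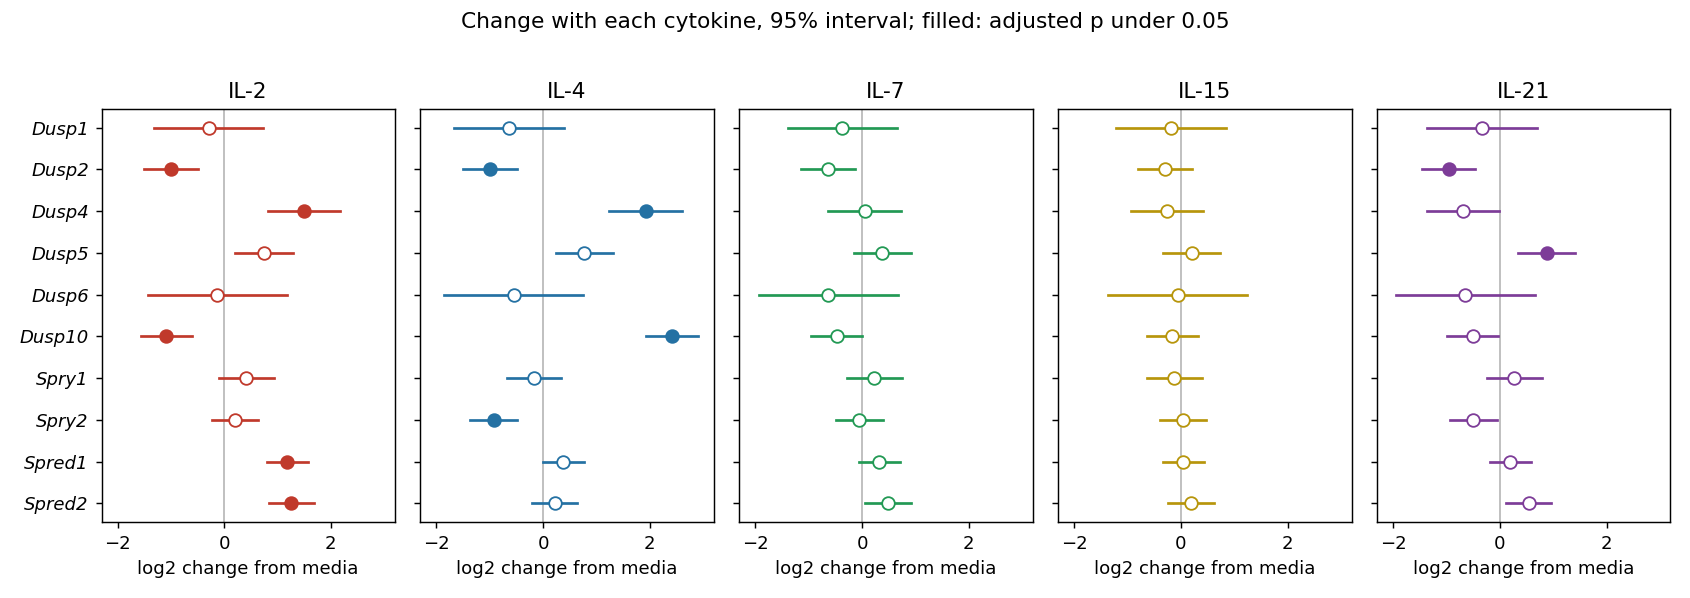
Log2 change from media control (horizontal axis) of the 10 genes (vertical axis), 1 panel per cytokine, with the 95% confidence interval from limma; filled points have an adjusted p under 0.05. The IL-2 panel has 5 filled points, that of IL-4 has 4, that of IL-21 has 2 and the other panels none, and the one farthest from 0 is Dusp10 with IL-4 at 2.42.

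The values as deposited gave far fewer calls, 0 of the 10 genes with IL-2, 1 (Dusp4) with IL-4 and 0 with IL-21. None of the 11 called changes turned its direction. The loss of calls ran through the whole table. Over all genes, the deposited values gave 39 higher and 35 lower for IL-2, against 1425 and 1455 after the renewed normalization. For IL-4 they gave 55 and 12, against 724 and 927. For IL-21 they gave 85 and 5, against 616 and 598. On the deposited scale the median change of all genes was 0.43 for both IL-4 and IL-21 and 0.41 for IL-7, because media control holds an array of the lower scale and these groups do not. With the replicate block on the deposited values, Dusp4 and Spred2 were called with IL-2 (limma adjusted p = 0.0116 and 0.0277), Dusp4, Dusp10 and Dusp5 with IL-4 (adjusted p = 1.02e-04, 8.04e-06 and 0.0273) and Dusp5 with IL-21 (adjusted p = 0.0211). Without the 3 arrays of the lower scale, a choice made after seeing the data, limma called 4 genes for IL-2, 3 for IL-4, 1 for IL-21 and 0 for the other two, and the calls lost were those of Dusp2.

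Dusp10, the phosphatase of p38 and JNK, moved in opposite directions with IL-2 and IL-4. In media control its level was 8.85, 9.31 and 8.67 in replicates 1, 2 and 3. With IL-4 it was 11.38, 11.57 and 11.13. With IL-2 it was 8.14, 7.88 and 7.55. The lowest IL-4 array thus lay above the highest array of every other group, and the highest IL-2 array lay below the lowest media control array. The mean rose from 8.94 ± 0.33 to 11.36 ± 0.22 (SD, n = 3) with IL-4, a change of 2.42 on the log2 scale (SE 0.23, 5.35-fold, limma adjusted p = 1.57e-05). It fell to 7.86 ± 0.30 with IL-2, a change of -1.08 (SE 0.23, 2.12-fold lower, limma adjusted p = 0.00344). With replicate 1 left out of every group the IL-2 call was lost (adjusted p = 0.0626), and likewise with replicate 2 (adjusted p = 0.0693).

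The other cytokines left Dusp10 close to media control. Its values were 8.65, 8.58 and 8.18 with IL-7 and 8.78, 9.19 and 8.36 with IL-15. With IL-21 they were 8.35, 8.64 and 8.31. The IL-7 and IL-21 arrays lay just below all media control arrays, and those of IL-15 overlapped them. The changes of -0.47 with IL-7 and -0.51 with IL-21 were not called by limma (adjusted p = 0.362 and 0.245) but were with the replicate block (adjusted p = 0.0233 and 0.0117), although on the deposited scale the IL-7 value was 0.06 higher than media control. The direct difference between IL-4 and IL-2 was 3.51 (11.4-fold, limma adjusted p = 5.29e-07), and Dusp10 was also higher with IL-4 than with IL-7 by 2.89, than with IL-15 by 2.58 and than with IL-21 by 2.93 (adjusted p = 3.53e-06, 1.15e-05 and 1.29e-06). A second probe set of the gene, which averages 5.79 and so lies under background, gave 2.17 with IL-4 (limma over all probe sets, adjusted p = 3.49e-05) and -0.24 with IL-2 (adjusted p = 0.702).

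**Figure D2:**
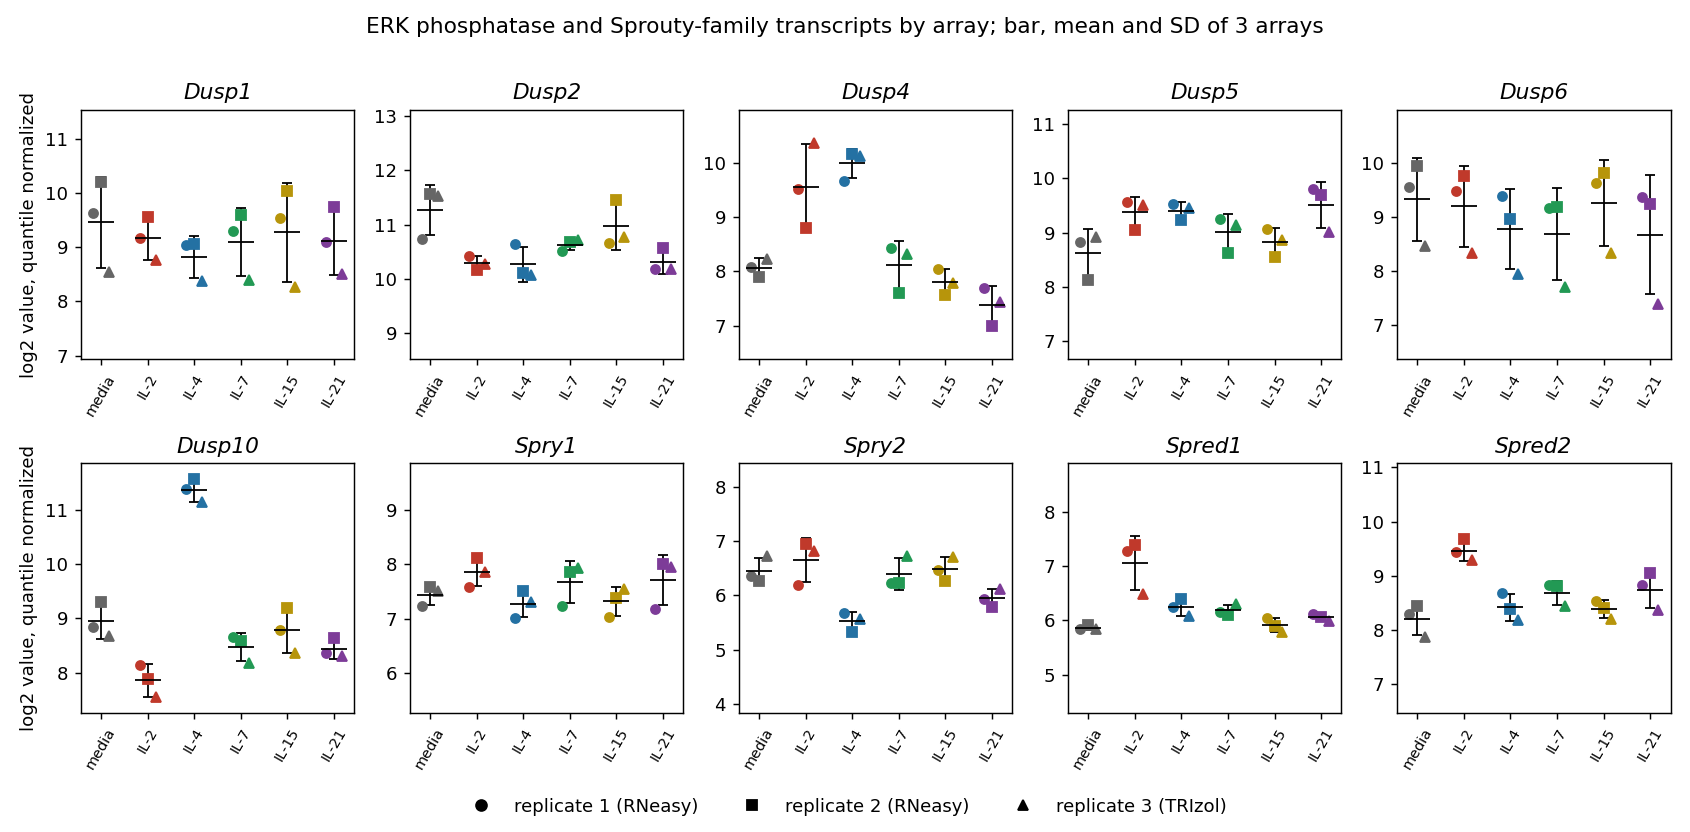
Quantile normalized log2 value (vertical axis, the same span in every panel) of the 10 genes in each of the 6 groups (horizontal axis); symbols are the 3 replicates, and bars give the mean and SD. Dusp10 stood at 11.13 or above in all IL-4 arrays and at 9.31 or below in every other array, while Dusp1, Dusp6, Dusp10 and Spred2 had their lowest value in replicate 3 (triangles) in every group.

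Dusp4, a nuclear phosphatase of ERK and JNK, rose with IL-2 and with IL-4. Its level was 8.07, 7.89 and 8.23 in media control. It was 9.51, 8.81 and 10.36 with IL-2. It was 9.67, 10.16 and 10.13 with IL-4. All 6 arrays of these cytokines lay above all arrays of the other 4 groups, and the IL-2 arrays were the more scattered, with the TRIzol replicate the highest. The rise was 1.49 with IL-2 (SE 0.32, 2.82-fold, limma adjusted p = 0.00407) and 1.92 with IL-4 (SE 0.32, 3.79-fold, adjusted p = 0.00126). Within the RNeasy replicates it was 1.18 with IL-2 (adjusted p = 0.0359) and 1.94 with IL-4 (adjusted p = 0.00659), and within the TRIzol replicate, where no test is possible, 2.13 and 1.90. Leaving replicate 1 out of every group ended both calls (adjusted p = 0.0952 and 0.0538).

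Dusp4 ran from 7.60 to 8.43 with IL-7 and from 7.57 to 8.05 with IL-15, both overlapping media control. With IL-21 it was 7.70, 6.99 and 7.43, below every media control array. That difference of -0.69 was not called (SE 0.32, limma adjusted p = 0.271). The 2 cytokines that raised the gene did not differ beyond their spread, with IL-2 0.43 below IL-4 (95% interval -1.11 to 0.25, adjusted p = 0.754). Both were above each of the others, IL-2 by 1.45 over IL-7, 1.76 over IL-15 and 2.19 over IL-21 (adjusted p = 0.0356, 0.00263 and 6.21e-04), and IL-4 by 1.87, 2.19 and 2.61 (adjusted p = 0.00576, 7.99e-04 and 1.19e-04).

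Dusp2, a nuclear phosphatase found mainly in blood cells, had its highest mean in media control. Its level there was 10.73, 11.56 and 11.52. It was 10.42, 10.16 and 10.27 under IL-2. It was 10.64, 10.10 and 10.07 under IL-4 and 10.18, 10.56 and 10.18 under IL-21. All 9 of these arrays lay below the lowest media control array, although that array, replicate 1 at 10.73, lay close to the highest of them at 10.64. The change was -0.99 with IL-2 (SE 0.24, 1.98-fold lower, limma adjusted p = 0.00893), -1.003 with IL-4 (2.00-fold lower, adjusted p = 0.0144) and -0.96 with IL-21 (1.95-fold lower, adjusted p = 0.0210), against the same control arrays. With IL-7 the values of 10.51, 10.67 and 10.71 also lay below media control, by 0.64 (adjusted p = 0.207), a difference called without media control replicate 1 (adjusted p = 0.0450). With IL-15 they were 10.67, 11.45 and 10.77 and overlapped it.

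The calls of Dusp2 depended on single arrays. Without media control replicate 2 the adjusted p was 0.0544 for IL-2, 0.0809 for IL-4 and 0.109 for IL-21. Without media control replicate 3 it was 0.0627 with IL-4 and 0.0960 with IL-21. The IL-4 call was also lost without IL-4 replicate 2 (adjusted p = 0.0651) or 3 (0.0621), and the IL-21 call without IL-21 replicate 1 (0.0923) or 3 (0.0800). Without the 3 arrays of the lower scale the falls were 0.86 in size for IL-2, 0.88 for IL-4 and 0.84 for IL-21, and none was called (adjusted p = 0.0700, 0.0582 and 0.0853).

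Dusp5, the nuclear ERK phosphatase whose upstream window holds the CArG boxes, had its lowest mean in media control. Its level was 8.83, 8.13 and 8.93 there and 9.80, 9.70 and 9.02 with IL-21. It was 9.56, 9.06 and 9.52 with IL-2 and 9.53, 9.23 and 9.45 with IL-4. Every array of these 3 cytokines lay above every media control array. The rise with IL-21 was 0.88 (SE 0.25, 1.83-fold) and passed the threshold narrowly (limma adjusted p = 0.0499). The differences of 0.75 with IL-2 and 0.77 with IL-4 did not (adjusted p = 0.0564 and 0.0703), while the replicate block called all 3 (adjusted p = 0.00395 for IL-21, 0.00629 for IL-2 and 0.00704 for IL-4).

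The IL-21 rise of Dusp5 was 1.27 within the RNeasy replicates (limma adjusted p = 0.0262) and 0.09 in the TRIzol replicate, although the difference between the kits was not called (interaction adjusted p = 0.212). Of the TRIzol arrays compared here, that of media control was on the lower scale and that of IL-21 was not. The call was lost without media control replicate 1 or 2 (adjusted p = 0.0575 and 0.236) and without IL-21 replicate 1 or 2 (0.213 and 0.156). It was also lost with arrays centred on their medians (0.0559), when the probe sets of each gene were averaged over the table (0.0522; Dusp5 has 1 probe set, so its own change stayed at 0.88), with a trended and robust variance (0.0501) and with all probe sets tested (0.0622). The difference with IL-2, in turn, was called on leaving out replicate 3 of media control (0.0425) or replicate 2 of IL-2 (0.0407). With IL-7 the values ran from 8.62 to 9.26 and with IL-15 from 8.55 to 9.07, both overlapping media control.

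Dusp1, an immediate early gene whose product prefers p38 and JNK, and Dusp6, the cytoplasmic ERK phosphatase, varied more with the replicate than with the cytokine. Dusp6 was 9.56, 9.94 and 8.47 in media control. It was 9.48, 9.76 and 8.34 with IL-2 and 9.63, 9.80 and 8.34 with IL-15. The third value of each is the TRIzol replicate, and it was the lowest of its group in all 6 groups. The gene stood at 9.39, 8.97 and 7.96 under IL-4, at 9.17, 9.19 and 7.71 under IL-7 and at 9.36, 9.24 and 7.40 under IL-21. In the same replicate each of these 9 arrays lay below its media control array, by means of 0.65 for IL-21, 0.63 for IL-7 and 0.55 for IL-4. None of the 3 was called by limma (adjusted p = 0.681, 0.698 and 0.684), and all 3 were with the replicate block (adjusted p = 0.00737, 0.0137 and 0.0165). On the deposited scale the differences were -0.17 for IL-21, -0.09 for IL-7 and -0.04 for IL-4. The replicate block called none of those (limma adjusted p = 0.720, 0.858 and 0.930). There replicate 3 of media control, at 7.12, lay below those of IL-21, IL-7 and IL-4 (7.50, 7.88 and 8.08).

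Dusp1 was 9.64, 10.19 and 8.54 in media control and 9.04, 9.05 and 8.38 with IL-4. The mean difference with IL-4 was -0.63 (SE 0.48, limma adjusted p = 0.529), lower in all 3 pairs of replicates and called with the replicate block (adjusted p = 0.0159). On the deposited scale it was -0.12, and the replicate block did not call it (limma adjusted p = 0.823). There replicate 3 was higher with IL-4 (8.52) than in media control (7.19). With the other 4 cytokines the group means lay 0.18 to 0.37 below media control, although on the deposited scale those of IL-7 and IL-21 lay 0.17 and 0.15 above it, and neither fit called them.

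The difference between the TRIzol replicate and the RNeasy replicates of the same group, tested after seeing these values, was -1.42 for Dusp6 (SE 0.09, 2.68-fold lower, limma adjusted p = 3.69e-08) and -1.02 for Dusp1 (SE 0.14, 2.03-fold lower, adjusted p = 3.12e-05), each lower in 6 of 6 groups. It was -0.41 for Dusp10 and -0.39 for Spred2 (adjusted p = 0.00114 and 2.42e-04), each also lower in 6 of 6 groups. It was 0.31 for Spry2 (adjusted p = 0.0136), and 54.7% of all genes were called in this comparison. The kit was used for replicate 3 alone, so that kit and replicate cannot be told apart. The interaction of kit and cytokine was called in none of the 10 genes, with a lowest adjusted p of 0.212 and an unadjusted p under 0.05 for Spred1 with IL-2 and Dusp5 with IL-21, where 0.011% of all genes were called for IL-2, 8.06% for IL-4, 5.45% for IL-7, 0% for IL-15 and 6.81% for IL-21.

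**Figure D3:**
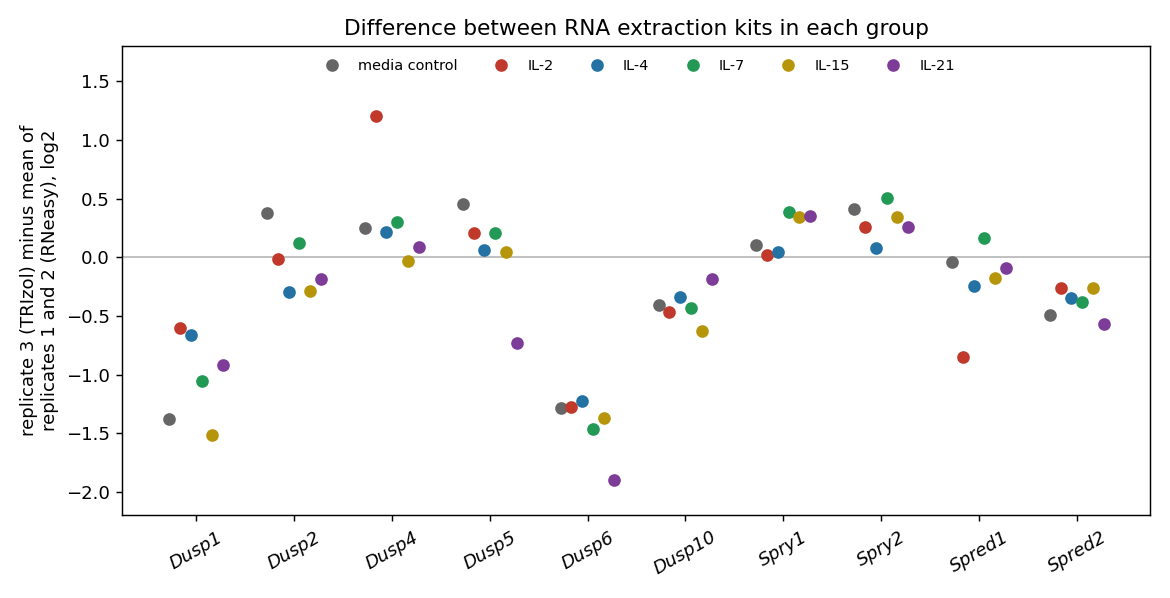
Level in replicate 3 (TRIzol) minus the mean of replicates 1 and 2 (RNeasy) on the log2 scale (vertical axis) for the 10 genes (horizontal axis), with 1 point per group. All 6 points of Dusp6 lie between -1.90 and -1.22 and all 6 of Dusp1 between -1.52 and -0.60, while the points of Dusp2 and Dusp5 lie on both sides of 0.

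Of the Sprouty genes, Spry2 fell with IL-4 and Spry1 passed the test with no cytokine unless the replicate block was used. Spry2 averaged 6.24 over the 18 arrays, under the background level, so that the size of its changes is not exact. It was 6.35, 6.26 and 6.72 in media control and 5.67, 5.32 and 5.57 with IL-4, and each IL-4 array lay below every array of the other 5 groups. The fall was 0.93 in size (SE 0.21, 1.90-fold lower, limma adjusted p = 0.00952). The call was lost without IL-4 replicate 2 (adjusted p = 0.0517) and with the mean of the gene's probe sets, where the change was -0.38 (adjusted p = 0.114). Leaving replicate 1 out of every group also ended it (adjusted p = 0.0807), as did leaving out replicate 2 (adjusted p = 0.130). On the deposited values the change was -0.48 and was not called, with the replicate block (adjusted p = 0.425) or without it (0.660). The second probe set, at a mean of 5.47, gave a value of 0.16 with IL-4 (adjusted p = 0.661). With IL-21 Spry2 was 5.94, 5.79 and 6.11, below media control in every array. Its difference of -0.50 was called by limma with the replicate block (adjusted p = 0.0371, against 0.199 without it). On the deposited scale that difference was -0.06, and the replicate block did not call it (adjusted p = 0.903). Spry2 ran from 6.19 to 6.94 under IL-2, from 6.22 to 6.73 under IL-7 and from 6.27 to 6.71 under IL-15, all overlapping media control.

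Spry1 was 7.22, 7.59 and 7.51 in media control and had its highest mean with IL-2, at 7.59, 8.11 and 7.87. The IL-2 value was the higher one in each of the 3 pairs, although the groups overlapped. The difference of 0.41 was not called by limma (SE 0.24, adjusted p = 0.349) and was with the replicate block (adjusted p = 0.0103). With the other 4 cytokines the mean difference from media control lay between -0.17 and 0.27 and passed in neither fit.

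Both SPRED genes rose with IL-2. Spred2 was 8.30, 8.44 and 7.88 in media control and 9.43, 9.67 and 9.29 with IL-2. The lowest IL-2 array lay above every array of the other 5 groups. The rise was 1.26 (SE 0.20, 2.40-fold, limma adjusted p = 4.54e-04) and was much the same within the kits, at 1.18 in RNeasy and 1.41 in TRIzol. Spred2 ran from 8.44 to 8.82 with IL-7 and from 8.37 to 9.05 with IL-21, differences from media control of 0.49 and 0.54 that the replicate block called (adjusted p = 0.00843 and 0.00244) and the fit without it did not (adjusted p = 0.265 and 0.136; within RNeasy 0.107 and 0.0290). With IL-4 and IL-15 it lay between 8.19 and 8.69.

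Spred1 was 5.84, 5.92 and 5.84 in media control and 7.28, 7.40 and 6.48 with IL-2. Its mean over all arrays of 6.22 lay under background, and in the IL-2 group the RNeasy arrays were above that level and the TRIzol array was not. Every IL-2 array was still higher than every array of the other 5 groups, of which the closest stood at 6.39 with IL-4. The rise was 1.19 (SE 0.18, 2.28-fold, limma adjusted p = 3.48e-04), with 1.46 within RNeasy and 0.64 within TRIzol, a difference that was not called (interaction adjusted p = 0.264). Leaving replicate 1 out of every group ended the call (adjusted p = 0.0582). With IL-4, IL-7 and IL-21 each array lay above all media control arrays, by means of 0.37, 0.32 and 0.19 that passed in neither fit (with IL-4 the RNeasy replicates alone gave an adjusted p of 0.0178), and with IL-15 the groups overlapped.

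The probe sets of a SPRED gene did not all move alike. Of the 7 other Spred1 probe sets, all under background, the one with the next highest mean gave 1.62 with IL-2 (limma over all probe sets, adjusted p = 1.69e-05) and another 0.72 (adjusted p = 0.0422), and the other 5 were not called (1 was with the replicate block). Of the 4 other Spred2 probe sets, 1 under background rose by 1.48 (adjusted p = 0.0312), while the only one above background, at a mean of 6.97, gave -0.07 (adjusted p = 0.979).

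**Figure D4:**
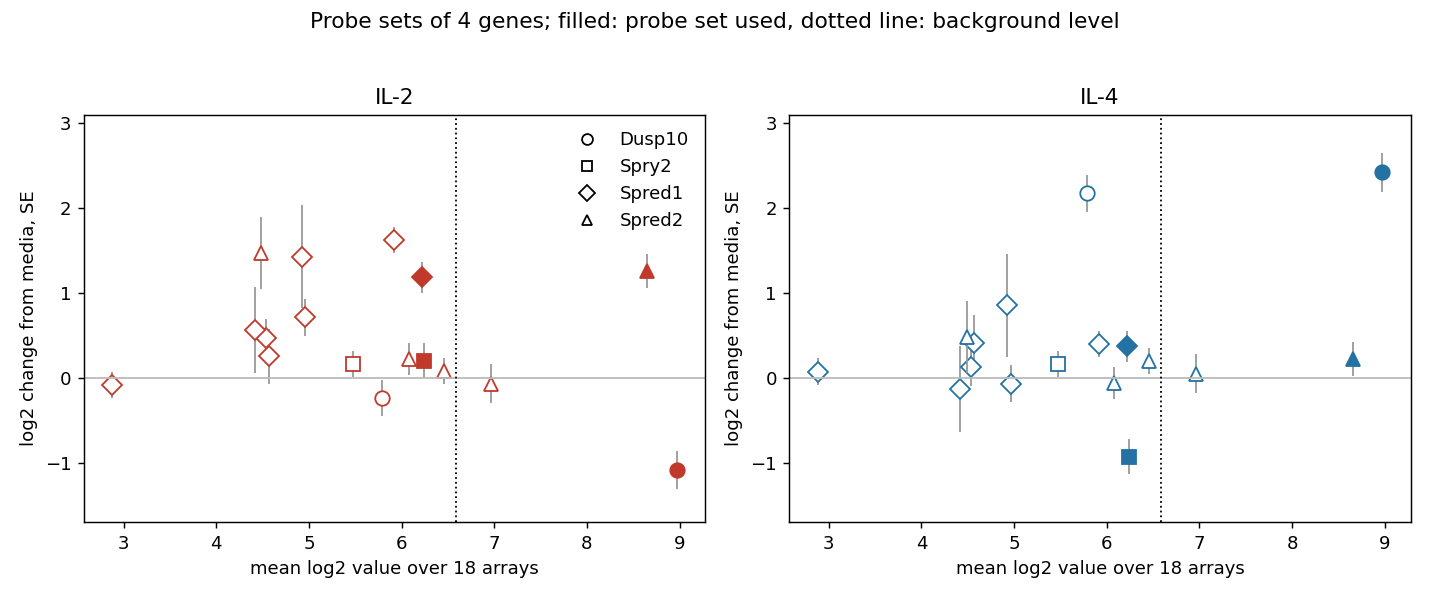
Log2 change from media control with its SE (vertical axis) against the mean log2 value over 18 arrays (horizontal axis) for each probe set of Dusp10, Spry2, Spred1 and Spred2, with IL-2 on the left and IL-4 on the right; filled symbols are the probe sets used and the dotted line is the background level of 6.59. Both Dusp10 probe sets lie above 2 with IL-4, while the Spry2 probe sets lie at -0.93 and 0.16.

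Compared directly, the cytokines differed most in Dusp4 and Dusp10, and the 2 SPRED genes set IL-2 apart. Over the 10 pairs of cytokines 20 differences in these genes were called, 6 of them in Dusp4 and 5 in Dusp10. IL-2 and IL-4 differed in 4 of the 10 genes (Dusp10, Spry2, Spred1 and Spred2), where 2.07% of all genes differed. IL-2 differed from IL-7 in 2 (1.42% of all genes), from IL-15 in 4 (8.6%) and from IL-21 in 3 (6.58%), and IL-4 differed from IL-7 in 2 (1.34%), from IL-15 in 3 (3.64%) and from IL-21 in 2 (3.81%). Spred1 was higher with IL-2 than with each other cytokine, by 0.81 over IL-4, 0.86 over IL-7, 1.14 over IL-15 and 0.99 over IL-21 (limma adjusted p = 0.0265, 0.0268, 0.00106 and 0.00321). Spred2 was higher with IL-2 by 1.04 over IL-4, 1.07 over IL-15 and 0.72 over IL-21 (adjusted p = 0.00956, 0.00301 and 0.0416), and by 0.77 over IL-7, which the replicate block alone called (adjusted p = 5.29e-04, against 0.0704). Spry2 was lower with IL-4 than with IL-2 by 1.13 and than with IL-15 by 0.96 (adjusted p = 0.00677 and 0.0147). Between IL-7, IL-15 and IL-21 limma called no difference in the 10 genes, where 0.011% (IL-7 and IL-15), 2.24% (IL-7 and IL-21) and 3.54% (IL-15 and IL-21) of all genes did and where 0, 2 and 3 of the 10 had an unadjusted p under 0.05. How many of all genes had such an unadjusted p in these pairs was not counted. With the replicate block 36 differences were called over the 10 pairs. Among these IL-2 differed from IL-15 in 7 genes (22.4% of all genes) and from IL-21 in 6 (21.4%). It differed from IL-4 in 5 (10.6%) and from IL-7 in 4 (11.1%). IL-4 differed from IL-7, IL-15 and IL-21 in 3 each (5.18%, 14.1% and 11.7%). A further 5 lay between IL-15 and IL-21 (12.6%), where Dusp6 and Spry2 were higher with IL-15 and Dusp5, Spry1 and Spred2 with IL-21 (adjusted p = 0.0213, 0.0394, 0.0290, 0.0309 and 0.0457).

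The order of the groups was read gene by gene. For Dusp10 the step from IL-4 down to media control passed the test, and media control, IL-15, IL-7, IL-21 and IL-2 then followed with no called step between neighbours, except that the replicate block called the step from IL-21 to IL-2 (adjusted p = 0.00511). For Dusp4 the called step lay between IL-2 and IL-7, for Spred1 between IL-2 and IL-4 and for Spred2 between IL-2 and IL-21. In the other 6 genes no step between neighbours was called in either fit. Over all 6 groups together the F test called 6 of the 10 genes (Dusp2, Dusp4, Dusp10, Spry2, Spred1 and Spred2), against 13.9% of all genes, and with the replicate block 9, all but Dusp1, against 35.7%.

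The rest of the pathway was counted in lists, for which the shares of all genes called were 15.8% for IL-2, 9.07% for IL-4, 6.67% for IL-21, 1.68% for IL-7 and 0% for IL-15. An unadjusted p under 0.05 was found for 4540 of all 18194 genes with IL-2 and for 3755 with IL-4. It was found for 3208 with IL-21, 2579 with IL-7 and 390 with IL-15. Of 21 measured genes of the cascade from receptor adaptors to ERK, IL-2 raised 2 and lowered 2 (15.8% of all genes either way), IL-4 raised 1 and lowered 1 (9.07%) and IL-21 raised 2 and lowered 1 (6.67%). None was called by limma with IL-7 or IL-15 (2 and 0 at an unadjusted p under 0.05). The counts for IL-2 and IL-4 lay near the shares of all genes. With the replicate block IL-2 raised 5 and lowered 6 of the 21 (30.6% of all genes), IL-4 raised 5 and lowered 3 (25.8%), IL-21 raised 5 and lowered 5 (21.1%) and IL-7 raised 1 and lowered 2 (16.3%). With IL-2 the Ras GTPase-activating gene Rasal3 fell by 1.12 and the related Dab2ip rose by 0.81, the adaptor Shc1 fell by 0.45 (limma adjusted p = 0.00607, 0.0114 and 0.0216), and Mapk7, which encodes ERK5 and is named to complete the count, rose by 0.42 (adjusted p = 0.0488). With IL-4 the Ras exchange factor Rasgrp1 rose by 1.23 and the GTPase-activating Rasa1 fell by 0.91 (adjusted p = 0.0255 and 0.0269). With IL-21 Rasa1 fell by 0.85, the scaffold Ksr1 rose by 0.85 and Dab2ip rose by 0.74 (adjusted p = 0.0473, 0.00595 and 0.0385). The median change of the list was 0.08 for IL-4 and 0.01 for both IL-2 and IL-21.

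Among 25 genes known to be induced by ERK, IL-2 raised 7 and lowered 1 (7.83% and 8% of all genes). IL-4 raised 3 and lowered 4 (3.98% and 5.1%), and IL-21 raised 4 and lowered 3 (3.39% and 3.29%). IL-7 raised 1 (0.934%), and IL-15 changed none by limma (0 at an unadjusted p under 0.05). With the replicate block IL-2 raised 9 and lowered 4 (15.5% and 15.1%), and IL-4 raised 4 and lowered 10 (12.9% and 12.9%). In that fit IL-21 raised 6 and lowered 8 (10.6% and 10.5%), and IL-7 raised 4 and lowered 4 (8.34% and 8.01%). The AP-1 gene Fosl2 rose by 2.05 under IL-21, 2.00 under IL-2 and 1.48 under IL-4 (limma adjusted p = 8.83e-04, 5.32e-04 and 0.00834). The immediate early gene Ier3 rose by 1.84 with IL-2 and 2.93 with IL-21 (adjusted p = 0.0220 and 0.00224). The membrane protein gene Emp1 went both ways, with rises of 1.86 for IL-2, 1.00 for IL-7 and 2.90 for IL-21 and a fall of 1.68 in size for IL-4 (adjusted p = 3.01e-05, 0.0224, 5.00e-07 and 9.94e-05). Phlda1 fell by 1.21 with IL-4 and by 1.87 with IL-21 (adjusted p = 0.0323 and 0.00234), and the zinc finger gene Egr3 fell by 2.38 with IL-21 (adjusted p = 5.25e-04). Over these cytokines the list therefore did not move 1 way, although with IL-2 more of its genes were called higher than lower. Its median change was -0.03 for IL-2, -0.39 for IL-4 and -0.12 for IL-21, beside medians of all genes between -0.02 and 0.01.

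**Figure D5:**
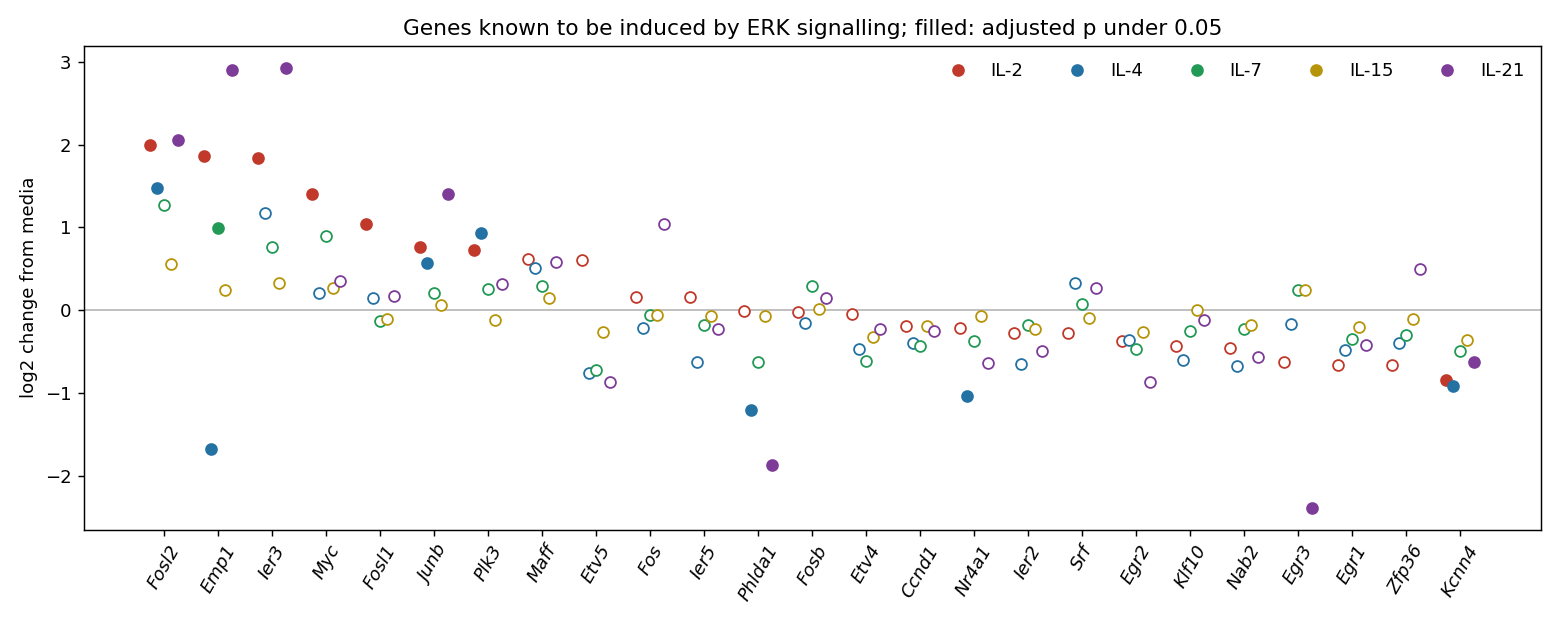
Log2 change from media control (vertical axis) of 25 genes known to be induced by ERK (horizontal axis, ordered by their change with IL-2), with 1 point per cytokine and filled points for an adjusted p under 0.05. Emp1 lies at 2.90 with IL-21 and at -1.68 with IL-4, and no point of IL-15 is filled.

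The other phosphatases and the JNK and p38 genes were counted the same way. Of 17 other dual-specificity phosphatases, IL-2 raised 3 and lowered 2 (15.8% of all genes either way) and IL-4 lowered 1 (9.07%), and limma called none for IL-7, IL-15 or IL-21 (2, 0 and 4 at an unadjusted p under 0.05). With the replicate block IL-2 raised 4 and lowered 4 (30.6% of all genes), IL-4 raised 2 and lowered 2 (25.8%), IL-7 lowered 3 (16.3%) and IL-21 raised 2 (21.1%). The cofilin phosphatase gene Ssh2 fell by 1.58 with IL-2 and by 1.76 with IL-4 (limma adjusted p = 1.46e-04 and 1.12e-04), and with IL-2 Dusp14 rose by 1.21 and Dusp22 by 0.91 (adjusted p = 0.0117 and 0.00151). The other two called with IL-2, named to complete the count, were Dusp16 at 0.59 and Ssh1 at -0.89. None of Spry3, Spry4 and Spred3 was called by limma with any cytokine, and 1 of them had an unadjusted p under 0.05 for each of IL-21, IL-4 and IL-2. Of 17 measured genes of the JNK and p38 pathways, IL-2 raised 3 and lowered 1 (15.8% of all genes either way), IL-4 raised 3 and lowered 2 (9.07%) and IL-21 raised 3 (6.67%), and limma called none for IL-7 or IL-15 (1 and 0 at an unadjusted p under 0.05). With the replicate block IL-2 raised 8 and lowered 1 of these (30.6% of all genes), and IL-4 raised 5 and lowered 3 (25.8%). In that fit IL-21 raised 7 and lowered 1 (21.1%) and IL-7 raised 2 (16.3%). Gadd45g, an activator of the p38 pathway, rose by 2.83 under IL-21, 1.71 under IL-2 and 1.69 under IL-4 (limma adjusted p = 2.45e-04, 0.00536 and 0.0102). The kinase gene Map3k5 fell by 0.81 with IL-2 and 0.75 with IL-4, Mapkapk3 rose by 0.83 with IL-2 and 0.72 with IL-21, and Gadd45b rose by 0.66 with IL-4 and 0.75 with IL-21. Summed over the 5 cytokines, limma called 9 changes in the cascade, 23 in the ERK-induced genes, 6 in the other phosphatases, 0 in the other Sprouty and SPRED genes and 12 in the JNK and p38 genes, and with the replicate block 32, 49, 17, 1 and 27.

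For the 6 genes that passed the F test, the genes of most similar pattern were listed by Pearson's r over the 18 arrays, a description in which the arrays share groups, replicates and kits. Trat1, an adaptor of the T cell receptor complex, was nearest to Dusp10 (r = 0.97), followed by Oas1a and Dipk1a (0.93 each). Ptgir, the prostacyclin receptor gene, was nearest to Dusp4 (0.95), followed by Erlin1 and Smyd5 (0.93 and 0.91). Mbp, Tbxa2r and Prkd2 were nearest to Dusp2 (0.91 each). For Spred2 these were Pcx, the pyruvate carboxylase gene, Acsl4 and Tgm1 (0.94, 0.92 and 0.91). For Spred1 they were Lonrf1, Gpt2 and Nars2 (0.93 each), and for Spry2 Capg, 9130214F15Rik and Trim44 (0.87, 0.86 and 0.86). Among these similar genes, Trat1, Lonrf1, Tgm1 and 9130214F15Rik averaged under background (5.93, 6.10, 5.71 and 4.12). Gpt2 lay at that level (6.59).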

How the data were processed

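RNA of 18 samples (6 groups, 3 replicates each) was hybridised to Affymetrix mouse GeneChip arrays, scanned with Affymetrix Command Console, and summarised by the authors as RMA log2 values, 1 per probe set, in Expression Console (named in the submitters' processing notes). The methods name RMA for every array, but 3 deposited columns lie on a lower scale than the other 15, and whether a single RMA run covered them all is not given in the sources used here, so the table was quantile normalized again (limma normalizeQuantiles). Of 45101 probe sets, 35890 are listed with genes in the platform annotation, 34958 with 1 symbol, 932 with several and 9211 are not listed. For each of 18194 genes the probe set with the highest mean over the 18 arrays was used, with no filter on low levels. The arrays have no detection calls here, and the background level of 6.59 is the 95th percentile among 34 genes typical of other tissues. Precision is limited by the 3 arrays per group.

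The fit used limma 3.58.1 (R 4.3.3) with a mean for each group over all 18 arrays (lmFit, eBayes, two-sided, 12 residual degrees of freedom). The 5 cytokines were set against media control and against each other, with p adjusted by the Benjamini-Hochberg method over all genes of a comparison and a threshold of 0.05. Arrays of the same replicate number were alike across groups: after group means were removed, all 45 pairs of arrays with the same number in different groups correlated across genes (lowest 0.44, median 0.60). The 90 pairs with different numbers had a median of -0.40, but removing the mean of 3 arrays by itself makes such values negative. The kit goes with the replicate number, so its part in this likeness cannot be told apart. The blocked fit, with the replicate number as a further factor, is therefore given where it changes a call. Sequences and motif matches come from RefSeq windows of GRCm38.p6, read with Python 3.11.15 and pandas 2.3.3, and figures were drawn with matplotlib 3.10.9.

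The 10 genes and the gene lists were chosen with earlier results of these data known. The text names all 10 genes, from each pathway list up to 3 called genes with the largest change per cytokine, and the 3 genes of most similar pattern for each gene past the F test. Of 188 listed genes, 17 have no value in this table and were not analysed here. Alternatives were the deposited values, median centring, the replicate and kit as blocks, leaving out replicates or arrays, a filter at background, other uses of probe sets, fits of 2 groups alone and another variance model. Leaving out the 3 arrays of the lower scale and the test of the kit were added after seeing the data.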

Additional observations from a re-analysis of the deposited data

How the results depend on the processing

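No called change of the 10 genes turned its direction under any alternative, and of 990 values recomputed for single genes 39 changed sign with no call in either fit. The values as deposited called 0 of the 10 genes with IL-2, 1 with IL-4 and 0 with IL-21, 4 differences over the 10 pairs of cytokines and 2 genes in the F test, and 0, 1, 0 and 0 changes in the lists of the ERK cascade, ERK-induced genes, other phosphatases and JNK and p38 genes. The replicate block called 7 for IL-4, 3 for IL-7, 6 for IL-21 and 36 over the pairs, with 32, 49, 17 and 27 in these lists and 1 among the other Sprouty and SPRED genes, and it changed no other count of calls by more than 1.5 times. The replicate block on the deposited values called 2 with IL-2, 1 with IL-21 and 9 over the pairs, with 2 in the cascade, 2 in the other phosphatases, 1 in the other Sprouty and SPRED genes and 5 in the JNK and p38 genes. The kit as a block called 3 with IL-7, 6 with IL-21, and 27, 35, 12, 1 and 21 in the 5 lists. Median centring left 1 with IL-21, 4 in the cascade and 7 in the JNK and p38 genes. With IL-21, 1 was called with the mean of probe sets, with trend and robust variance, with all probe sets tested and without the 3 lower arrays. Fits of only the 2 groups compared called 3 with IL-2 and 0 with IL-21. Leaving out 1 replicate number or 1 array gave 2 to 6 for IL-2, 2 to 4 for IL-4, 0 to 1 for IL-7, 0 for IL-15, 0 to 2 for IL-21 and 5 to 20 over the pairs. Causes of these shifts were not tested, except that fits without a replicate or of 2 groups rest on fewer arrays. Changes of Spry2 and Spred1, which average under background, are not exact in size, and 3 arrays per group limit the rest.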
